A study of Caenorhabditis elegans with 12 samples.

Results

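The 33 genes described here are the spermatogenesis and sperm activation genes among the 19089 genes with values in RNA-seq libraries of whole *C. elegans* worms. They were chosen by name, with earlier results of these data known. Of the 33, 24 have a name that starts with *spe-* (*spe-4*, the sperm presenilin gene, was left out). The 9 further genes are *fer-1*, *gsp-3*, *gsp-4*, *fog-1*, *fog-3*, *cpb-1*, *swm-1*, *snf-10* and *try-5*. In worms fed Aβ RNAi bacteria without the peptide (AB0S), the expression of 16 of the 33 genes was lower than in control worms (EV0S). The expression of 0 was higher, where 8.26% of all genes were lower and 2.82% higher (limma adjusted p below 0.1). At an adjusted p below 0.05, 1 of the 33 was lower, with 3.44% of all genes called. Without EV0S repeat 1 or 2, or without any 1 AB0S library, 0 members and 0.0524% to 1.29% of all genes were called. The 16 genes code for proteins of several stages of sperm development and function, such as the phosphatases GSP-3 and GSP-4, the ferlin FER-1 and the surface proteins SPE-38, SPE-42 and SPE-49. With the peptide on control bacteria (EVPS), these 16 genes showed no called change at a limma adjusted p below 0.1. At that threshold 3 of the 33, *cpb-1*, *fog-1* and *spe-48*, rose, where 5.51% of all genes did.

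A *C. elegans* hermaphrodite makes sperm in late larval life and then switches its germ line to oocytes for the rest of adulthood. FOG-1, FOG-3 and CPB-1 set the sperm fate and carry germ cells into sperm meiosis, and SPE-44 switches on many sperm genes. During and after meiosis the fibrous bodies and membranous organelles are built and sorted into the budding spermatids. The SPE-8 group and, in males, the seminal protease TRY-5 then turn round spermatids into crawling sperm, and a further set of sperm surface proteins, SPE-9 among them, is needed for fertilization. Spermatids and sperm make hardly any new RNA, and hermaphrodites use up their own sperm in early adulthood.

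All 4 groups were CL2006 worms, which carry the human Aβ minigene under the *unc-54* promoter of body wall muscle together with the *rol-6* marker plasmid pRF4. They were kept at 20 °C for a second generation on their bacteria, washed free of progeny every day, and harvested as pools at day 6 of adulthood. The bacteria of EV0S and EVPS worms held an empty vector (EV), and those of AB0S and ABPS worms the RNAi vector against Aβ. EVPS and ABPS worms were given the 5MER peptide daily from day 1 of adulthood, and EV0S and AB0S worms the M9 buffer. Each group had 3 repeats. The genotype label of the EV groups reads WT, which here stands for worms without Aβ RNAi, since their strain is CL2006 too. The labels give no dose for the peptide.

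The deposited values were counts per gene, divided by the size factors of each library and then corrected by the authors for the 3 repeats. They are called normalized values here. The sequencing depth behind them is unknown, so no limit of detection can be given. Markers of the worm's tissues were present in all libraries, from *lim-7* of the gonadal sheath (192 to 416) to *unc-54* of the body wall muscle (38120 to 81500). Changes were tested with limma on log2(value + 1) over all 19089 genes and 12 libraries, with the group and the repeat number in the model, and a gene was called at a Benjamini-Hochberg adjusted p below 0.1, the threshold of the study's methods. For genes with low values this scale gives a smaller fold change than the values themselves.

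A pair of libraries stood apart from their groups, and most sperm genes took part in this. A principal component analysis of 15516 genes put 54.5% of their variance on the first component, where EV0S repeat 3 scored 25.05 against -36.77 and -33.94 for the other EV0S libraries, and ABPS repeat 2 scored 26.29 against -3.97 and -24.19. The AB0S libraries scored between 36.13 and 44.86, so both outlying libraries lay on the AB0S side. EV0S repeat 3 had the lowest of the 3 EV0S values for 27 of the 33 genes (81.8%, against 44.5% of all genes), and ABPS repeat 2 the lowest of the 3 ABPS values for 29 of 33 (87.9%, against 34.5% of all genes). The level of a member in EV0S repeat 3 was 0.672 times the mean of EV0S repeats 1 and 2 in the median, and its level in ABPS repeat 2 was 0.535 times the mean of ABPS repeats 1 and 3. In the 30 members whose mean reached 10, the median coefficient of variation within a group was 21.9% in EV0S, 14.4% in EVPS, 11.6% in AB0S and 37.1% in ABPS. For all 15516 genes of that level it was 13%, 7.06%, 7.89% and 8.04% in the same order. The counts of called members are therefore given with and without these libraries, while the further gene lists below were counted only with all libraries.

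**Figure D1:**
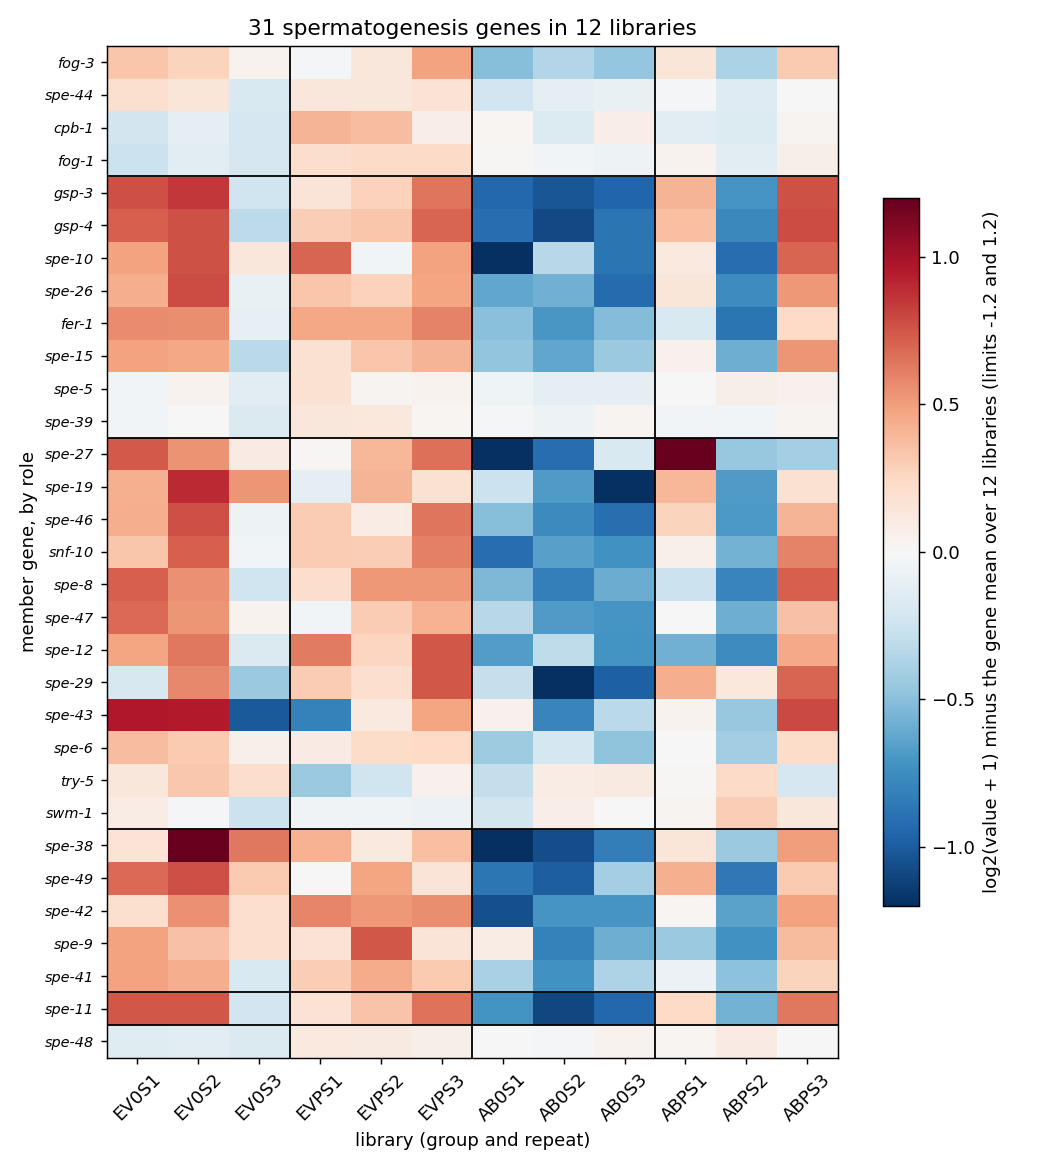
Each row is 1 of 31 of the 33 genes, grouped by role with black lines, and each column is 1 library. The color shows log2(value + 1) minus the mean of that gene over the 12 libraries, with red above and blue below the mean. Most rows are blue in the 3 AB0S libraries and in ABPS repeat 2, while *fog-1*, *cpb-1*, *spe-48*, *spe-39*, *spe-5* and *swm-1* stay pale.

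The 33 genes differed widely in level. Per kilobase of exon, *spe-39* had the highest mean over the 12 libraries (1082 normalized values per kb), followed by *cpb-1* (878), *spe-48* (862), *swm-1* (774) and *fog-1* (559). Among these, SPE-39 is a vesicle trafficking protein found in many tissues, and SWM-1 is a secreted protease inhibitor. Genes of mature sperm had levels below these, with 405 per kb for *gsp-3*, 157 for *spe-11*, 36.6 for *fer-1*, 14.8 for *spe-9* and 8.94 for *spe-42*. The same held for genes of germ cell fate and transcription other than *cpb-1* and *fog-1*, with 317 per kb for *spe-44* and 116 for *fog-3*. The lowest was *spe-29*, with 5.26 per kb and a mean value of 1.80, which is too low for a statement on its change. Neighbors in this order were close. The order of *cpb-1* and *spe-48* changed between groups, with *spe-48* at 775 and *cpb-1* at 768 per kb in EV0S, and *cpb-1* at 1066 and *spe-48* at 922 per kb in EVPS.

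The first comparison was between AB0S and EV0S worms, which asks how suppression of Aβ alters expression in the absence of the peptide. In AB0S the expression of 16 of 33 members was lower and that of 0 was higher, at limma adjusted p values between 0.0353 and 0.0841. Of all 19089 genes, 8.26% were lower and 2.82% higher at the same threshold. In total 28 of the 33 had a log2 fold change below 0, with a median of -0.91 over the 33, where the median of all genes was 0.03. All 3 AB0S libraries lay below all 3 EV0S libraries for 24 of the 33 genes, which was the case for 14.1% of all genes. In 25 of 33 genes the AB0S value was lower in each same-numbered pair, as in 17.3% of all genes. In bulk RNA, fewer sperm or spermatocytes per worm and less of these transcripts per cell cannot be told apart.

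The call rested on single libraries. Without EV0S repeat 3, the library of the controls with the low sperm transcripts, 24 members were lower and 1, *spe-48*, was higher in AB0S, but calls also rose from 11.1% to 34.2% of all genes. Without EV0S repeat 1 or 2, or without any 1 of the 3 AB0S libraries, 0 members and 0.0524% to 1.29% of all genes passed, while the median log2 fold change of the members stayed between -0.97 and -0.70. Without ABPS repeat 2, the other outlying library, 18 were lower, with 11.9% of all genes called. With EVPS repeat 1, EVPS repeat 2 or ABPS repeat 1 left out, 8, 5 and 4 members passed, all lower, with 6.67%, 6.18% and 5.34% of all genes called. With quantile normalization 2 passed (*gsp-3* and *spe-38*), with a median of -0.77 and 5.76% of all genes called.

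Among the genes of sperm meiosis, budding and the membranous organelles, 5 of 9 were lower in AB0S. *gsp-3* codes for a sperm-enriched PP1 phosphatase that acts in sperm chromosome segregation and motility, and lies on chromosome I from 4709259 to 4710712 (WBcel235). Its normalized values were 692, 725 and 343 in EV0S repeats 1 to 3 and 209, 197 and 208 in AB0S. The AB0S libraries were the lowest of the 12 and close to each other, and EV0S repeat 3 lay between them and the other EV0S libraries. The mean was 587 ± 212 in EV0S and 205 ± 6.51 in AB0S (mean ± SD, n = 3), and the log2 fold change was -1.44 (limma adjusted p = 0.0592, SE 0.36). Its close paralog *gsp-4* had 514, 533 and 251 in EV0S and 166, 147 and 170.2 in AB0S, a log2 fold change of -1.35 (limma adjusted p = 0.0708, SE 0.37). The proteins are nearly identical, so reads that match both genes make their separate values uncertain.

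*fer-1*, which codes for the ferlin that lets membranous organelles fuse with the plasma membrane, had values of 319, 317 and 201 in EV0S and 152, 133 and 149.7 in AB0S. The groups did not overlap, and the log2 fold change was -0.91 (limma adjusted p = 0.0711, SE 0.25). *spe-26*, a kelch-repeat gene of spermatocyte organization, fell from 148 ± 43.3 to 67.9 ± 8.66 (mean ± SD, n = 3, limma adjusted p = 0.0808). The palmitoyltransferase gene *spe-10*, at a log2 fold change of -1.28, was just outside the threshold (limma adjusted p = 0.107). The myosin VI gene *spe-15* had 1089.6, 1078 and 621 in EV0S and 559, 504 and 572 in AB0S and was also not called (limma adjusted p = 0.149). In this role, 2 genes had log2 fold changes near 0. These were *spe-39*, with values of 2048, 2107 and 1865 in EV0S and 2077, 2009 and 2143 in AB0S, at 0.05 and the V-ATPase subunit gene *spe-5* at -0.05 (limma adjusted p = 0.69 and 0.717).

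Of the 12 genes of sperm activation and its control, 5 were lower in AB0S. *snf-10* codes for the SLC6 family transporter through which spermatids respond to TRY-5. Its values were 46.1, 60.4 and 35.5 in EV0S and 18.8, 22.8 and 21.7 in AB0S, a log2 fold change of -1.10 (limma adjusted p = 0.0744, SE 0.31). *spe-6*, a casein kinase gene that holds spermatids back from early activation, fell from 221 ± 24.3 to 143 ± 14.3 (mean ± SD, n = 3, limma adjusted p = 0.0685). *spe-46* and *spe-47*, whose loss lets spermatids activate too early, had log2 fold changes of -1.11 and -0.99 (limma adjusted p = 0.0675 and 0.0711). *spe-46* had 138, 174 and 97.4 in EV0S and 70.7, 59.3 and 53.8 in AB0S.

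In the SPE-8 group, which relays the activation signal in hermaphrodites, *spe-19* was called and the others were not. The values of *spe-19* were 23.7, 32.98 and 25.4 in EV0S and 14.3, 10.4 and 6.55 in AB0S, a log2 fold change of -1.35 (limma adjusted p = 0.0683, SE 0.37). The tyrosine kinase gene *spe-8*, *spe-12*, *spe-27*, *spe-29* and *spe-43* had log2 fold changes between -1.38 (*spe-27*) and -0.66 (*spe-43*), with limma adjusted p from 0.149 (*spe-8*) to 0.567 (*spe-43*). Their mean values lay between 1.80 and 52.0, and *spe-27* and *spe-29* were among the lowest of the 33. *spe-27* had 10.8, 9.29 and 6.58 in EV0S and 1.22, 2.77 and 5.23 in AB0S, and *spe-29* had 1.27, 2.87 and 0.899 and 1.14, 0.133 and 0.315, which for *spe-29* is close to 0. The values of *spe-27* are uncertain too, since 61 bases (13.4%) of its exon length are shared with C06E7.88 on the same strand. For the extracellular regulators of activation no change was called. *swm-1* had 494, 462 and 388 in EV0S and 400.2, 491 and 467 in AB0S, with overlapping groups and a log2 fold change of 0.02 (limma adjusted p = 0.943, SE 0.11). *try-5*, the protease gene of the male seminal fluid, had 30.8, 35.5 and 32.7 in EV0S and 22.9, 29.96 and 30.4 in AB0S, a log2 fold change of -0.25 (limma adjusted p = 0.544, SE 0.22). The *try-5* groups did not overlap, but the highest AB0S and the lowest EV0S library were nearly equal.

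Among the 6 fertilization genes, 4 were lower in AB0S, and all 6 had log2 fold changes below 0. *spe-38*, which codes for a 4-pass membrane protein of the sperm surface, had the smallest p of the 33 genes. Its values were 9.44, 20.7 and 13.4 in EV0S and 2.95, 3.43 and 4.23 in AB0S, a log2 fold change of -1.72 (limma adjusted p = 0.0353, SE 0.35). Its exons share 58 bases (8.85% of its exon length) with *impt-1* on the same strand, so its low values are uncertain. *spe-42* and *spe-49* code for membrane proteins with a related domain. *spe-42* had 24.2, 31.3 and 24.4 in EV0S and 9.64, 12.5 and 12.5 in AB0S, and *spe-49* had 47.02, 50.1 and 36.1 and 15.4, 14.1 and 21.5. In both genes the AB0S libraries were all below the EV0S libraries, with log2 fold changes of -1.14 (limma adjusted p = 0.062, SE 0.30) and -1.34 (limma adjusted p = 0.0622, SE 0.35). *spe-41*, the gene of the sperm TRPC channel that moves to the surface at activation, fell from 231 ± 54.8 to 136 ± 18.1 (limma adjusted p = 0.0841). *spe-9*, which codes for an EGF-repeat membrane protein, was not called, at a log2 fold change of -0.78 (limma adjusted p = 0.223, SE 0.35).

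*spe-11* is the paternal-effect gene, whose product is brought by the sperm and needed by the embryo. Its values were 234, 234.6 and 119.1 in EV0S, 158, 177 and 219.7 in EVPS, 84.6, 65.2 and 72.4 in AB0S and 165, 94.2 and 217 in ABPS. The level in AB0S was 0.378 times that in EV0S, a log2 fold change of -1.33 (limma adjusted p = 0.0553, SE 0.33). As for *gsp-3*, EV0S repeat 3 and ABPS repeat 2 lay closest to the AB0S libraries.

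The 4 genes of germ cell fate and transcription split. *fog-3*, the Tob family gene that sets the sperm fate, fell from 142, 136 and 116 in EV0S to 79.0, 88.4 and 81.6 in AB0S, a log2 fold change of -0.65 (limma adjusted p = 0.084, SE 0.20). Its partner in that choice, the CPEB gene *fog-1*, had a log2 fold change of 0.17 and the related gene *cpb-1* of 0.16, both above 0 and not called (limma adjusted p = 0.174 and 0.406). The transcription factor gene *spe-44* had 590.1, 569 and 453 in EV0S and 438, 476 and 484 in AB0S (limma adjusted p = 0.305). *spe-48*, to which no role was assigned here, stood with *fog-1* and *cpb-1*, at 0.16 (limma adjusted p = 0.11).

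**Figure D2:**
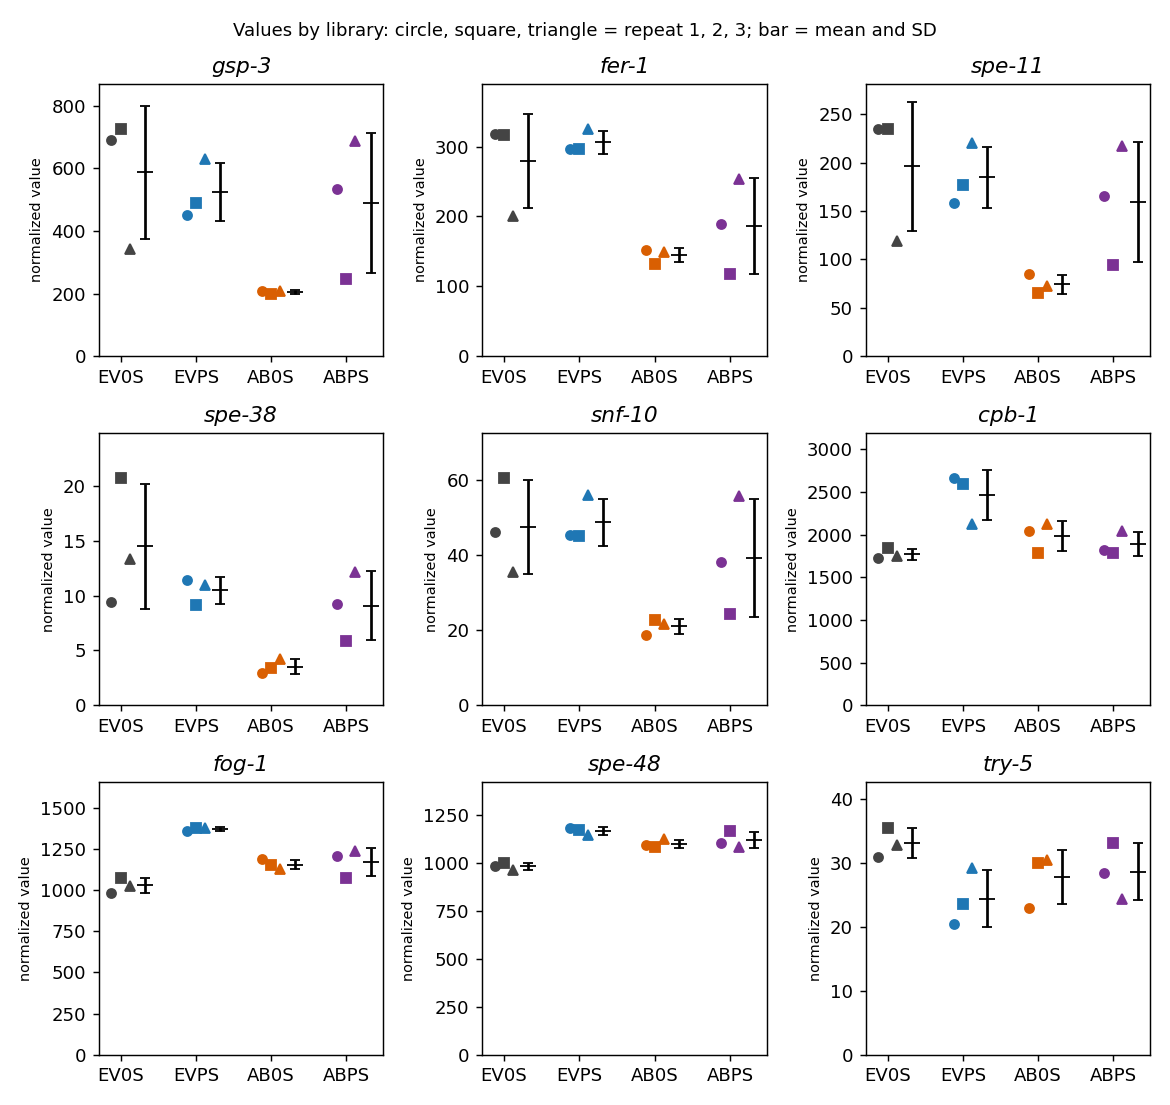
Normalized values (y axis, linear from 0) of 9 members in the 12 libraries, with a marker shape for each repeat and the mean and SD of the group beside it. In *gsp-3*, *fer-1*, *spe-11*, *spe-38* and *snf-10* the mean is lowest in AB0S. In *fog-1*, *cpb-1* and *spe-48* the mean is highest in EVPS, and *try-5* shows neither. Single libraries can differ from this order, as ABPS repeat 2 is the lowest library for *fer-1*.

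**Figure D3:**
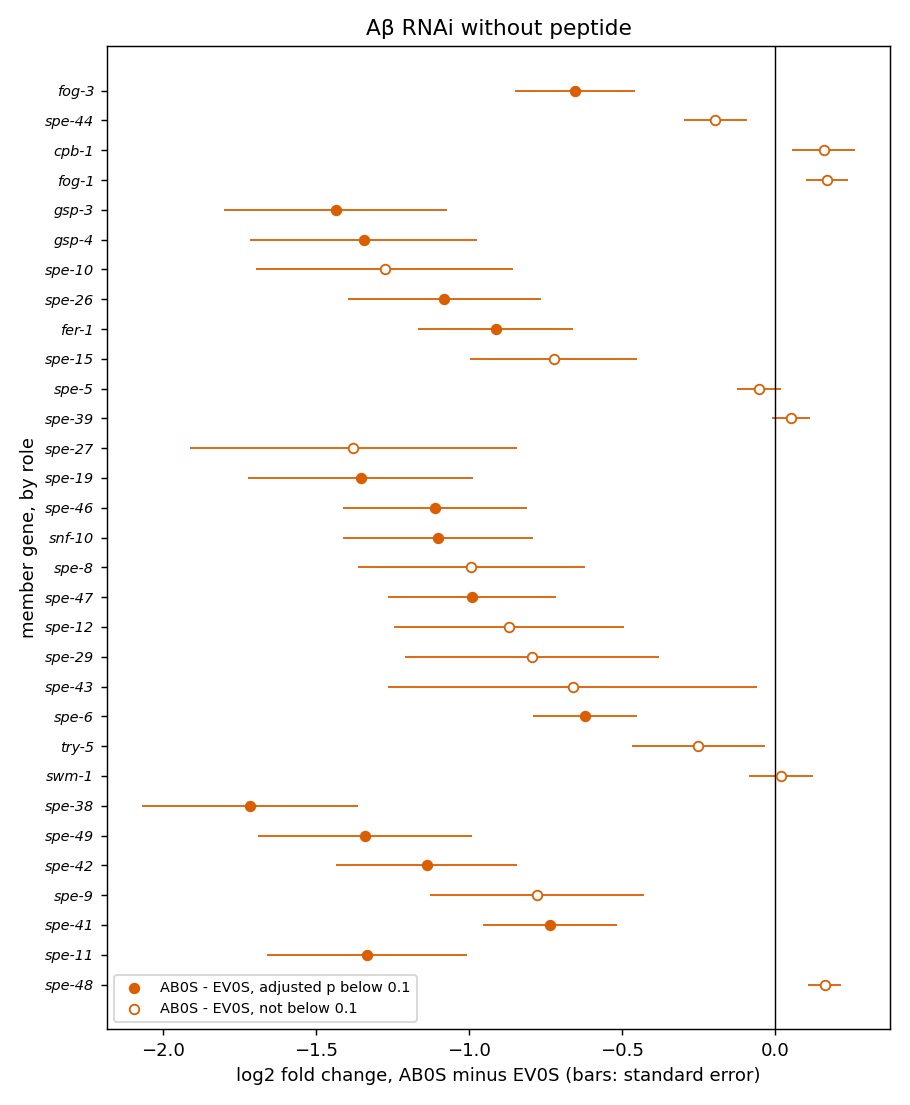
Log2 fold change of 31 of the 33 genes between AB0S and EV0S (x axis, bars are standard errors of the limma fit), by role on the y axis. The 15 filled points, between -1.72 and -0.62, passed the adjusted p of 0.1, and 5 genes lie above 0 with open points.

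The peptide's effect in worms with high Aβ was read from EVPS against EV0S. Of the 33 members, 3 were called higher and 0 lower, where 5.51% of all genes were higher and 1.82% lower. The 3 were *cpb-1*, *fog-1* and *spe-48*. The 16 genes that were lower in AB0S had 0.961 times their EV0S level in EVPS in the median of the ratios of the means (from 0.719 to 1.18). The EV0S means include the outlying EV0S repeat 3, which raises these ratios. In the 16 genes it was at 0.653 times the mean of EV0S repeats 1 and 2 in the median (from 0.480 to 0.897). Over all 33 members the median log2 fold change was 0.02, with 18 above 0, where the median of all genes was -0.05. For 4 members, namely these 3 and *spe-39*, all EVPS libraries lay above all EV0S libraries, as for 14.9% of all genes. For *try-5* and *spe-19* all EVPS libraries lay below, as for 12.4% of all genes, and neither was called.

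The sperm genes that were low in AB0S had EVPS values within or near the range of EV0S. *gsp-3* had 451, 491 and 629 and *gsp-4* 385, 394 and 509 in EVPS. *fer-1* had 297, 297 and 325 and *snf-10* 45.2, 45.01 and 55.9. These groups overlapped with EV0S, and *fog-3*, at 111, 125 and 158, did so too. For *spe-38* the EVPS values of 11.4, 9.11 and 10.95 also overlapped with EV0S, where the low library was repeat 1. *spe-19* had 15.9, 23.3 and 19.8 in EVPS, a log2 fold change of -0.46 (limma adjusted p = 0.565, SE 0.37), and *try-5* had 20.4, 23.6 and 29.2, a log2 fold change of -0.43 (limma adjusted p = 0.314, SE 0.22). *swm-1* had 452, 452 and 444 and *spe-39* 2313, 2290.2 and 2135 in EVPS. Without EV0S repeat 3 the median log2 fold change of the 33 genes was -0.28, where the median of all genes was -0.05.

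*fog-1* codes for a CPEB-type RNA-binding protein needed for germ cells to become sperm, and lies on chromosome I from 3211046 to 3217267. Its values were 987, 1075 and 1026 in EV0S and 1362, 1382 and 1381 in EVPS. The EVPS libraries were close together and all above the 9 others, and the log2 fold change was 0.42 (limma adjusted p = 0.0511, SE 0.07). *cpb-1*, which codes for the CPEB protein that spermatocytes need to go through meiosis, lies on chromosome III from 9322310 to 9324913. It had 1726, 1847 and 1747 in EV0S and 2661, 2598 and 2124 in EVPS, a log2 fold change of 0.47 (limma adjusted p = 0.0569, SE 0.10). EVPS repeat 3 was at the level of AB0S repeat 3 (2124 in both), so the EVPS group overlapped the AB0S group. *spe-48* rose from 983, 999 and 966 to 1185, 1173 and 1145, a log2 fold change of 0.25 (limma adjusted p = 0.0565, SE 0.05). ABPS repeat 2, at 1166, lay above EVPS repeat 3, so for *spe-48* the EVPS and ABPS groups overlapped.

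These calls came close to the threshold as well. The same 3 genes were called without EV0S repeat 3, together with *spe-43*, which then was lower, while calls rose from 7.33% to 13.8% of all genes. The 3 calls were lost without EV0S repeat 1, EV0S repeat 2, EVPS repeat 1, EVPS repeat 2 or ABPS repeat 1. In each of these fits 0% of all genes were called, so the loss was not particular to these genes. The 3 calls were also lost with all libraries rescaled to the same sum, as was every other call of this comparison. Over all alternatives the log2 fold change of *fog-1* stayed between 0.38 and 0.47 and that of *cpb-1* between 0.39 and 0.60. Some oocyte genes were higher in EVPS as well. Of 18 oocyte genes, 8 were called higher in EVPS, where 5.51% of all genes were. Among the 8 were *oma-1* at 0.36 and *mex-3* at 0.33 on the log2 scale (limma adjusted p = 0.0511 for both). The summed level of the 18 was 497506 to 533012 in EVPS against 388117 to 472417 in EV0S. In EV0S repeat 3 their mean log2 deviation from the gene means was -0.29, against -0.02 and -0.07 in EV0S repeats 1 and 2. There *fog-1*, *cpb-1* and *spe-48* did not fall likewise, at 0.995, 0.978 and 0.975 times the mean of EV0S repeats 1 and 2. None of the 18 stayed below a value of 10. Their part in the rise of *fog-1*, *cpb-1* and *spe-48* was not tested.

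In worms with low Aβ the peptide's effect was read from ABPS against AB0S. No member was called, as 0% of all genes were called in either direction, and the smallest limma adjusted p of the members was 0.279, which was also the smallest of all genes. The levels nevertheless lay mostly above those of AB0S. The log2 fold change was above 0 for 31 of the 33, with a median of 0.50 where the median of all genes was -0.02, and 10 members (30.3%) had an unadjusted p below 0.05, all higher, where 9.36% of all genes did. For 9 members all 3 ABPS libraries lay above all 3 AB0S libraries, as for 14.9% of all genes.

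The ABPS libraries disagreed. *gsp-3* had 534, 247 and 687 in ABPS repeats 1 to 3 against 209, 197 and 208 in AB0S, a log2 fold change of 1.13 (limma adjusted p = 0.279, SE 0.36). Repeats 1 and 3 were at the level of the EV0S and EVPS libraries and repeat 2 was near AB0S. The repeats had the same order in *fer-1*, with 189, 117 and 254 in ABPS, and in *snf-10*, with 38.04, 24.2 and 55.7. For *fer-1*, repeat 2 was below all 3 AB0S libraries, and for *snf-10* just above them. *spe-38*, with the smallest p of the 33 in this comparison, had 9.25, 5.84 and 12.1 in ABPS, a log2 fold change of 1.11 (limma adjusted p = 0.279, SE 0.35). For *spe-11* it was 1.02 (limma adjusted p = 0.279, SE 0.33). *gsp-4* had 401, 183 and 538 and *fog-3* 125, 86.8 and 141 in ABPS, again with repeat 2 the lowest. The extracellular regulators went another way, with *swm-1* at 475, 572 and 512 and *try-5* at 28.3, 33.1 and 24.3 in ABPS, where repeat 2 was the highest. Without ABPS repeat 2, 9 members were higher in ABPS than in AB0S, among them *gsp-3*, *gsp-4*, *spe-11*, *spe-26*, *spe-46*, *spe-49*, *snf-10* and *spe-42*. The median log2 fold change was then 0.84, and 3.77% of all genes were called. Without EV0S repeat 3, which is in neither group but adds to the shared spread, 9 were higher too, among them *gsp-3*, *gsp-4*, *spe-11*, *spe-46* and *snf-10* from before, with 16.2% of all genes called. With only these groups fitted, *gsp-3*, *gsp-4* and *spe-11* were called higher, with 12.7% of all genes called.

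**Figure D4:**
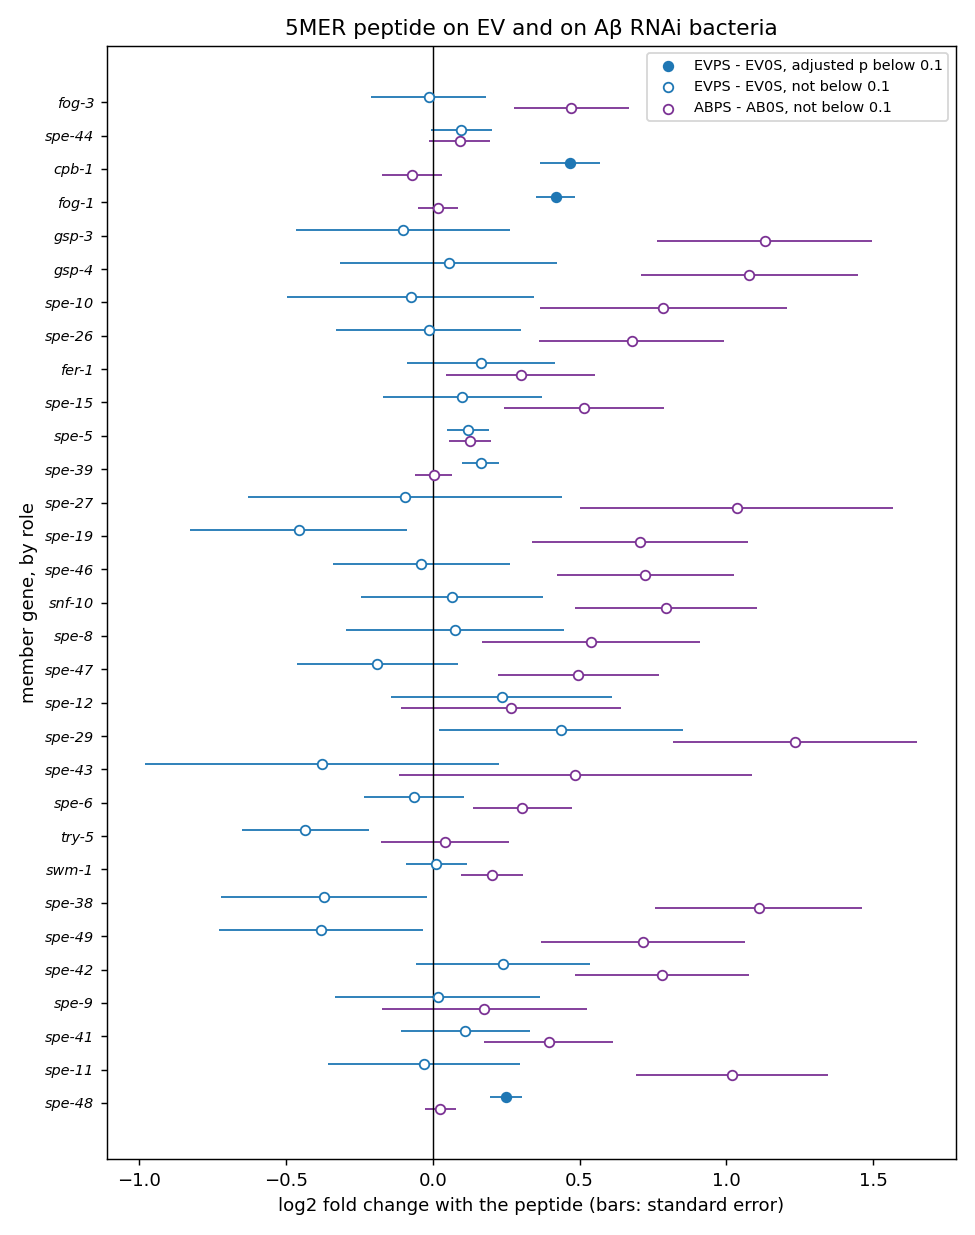
Log2 fold change with the peptide for 31 of the 33 genes on empty-vector bacteria (EVPS against EV0S, blue) and on Aβ RNAi bacteria (ABPS against AB0S, purple), with standard errors of the limma fit. The 3 filled points are *cpb-1*, *fog-1* and *spe-48* on empty-vector bacteria. Most purple points lie to the right of 0 and all are open.

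A dependence of the peptide response on the Aβ level was tested as the difference of the 2 effects, EVPS against EV0S minus ABPS against AB0S. For 27 of the 33 genes the difference was below 0, with a median of -0.49 where the median of all genes was -0.03. In limma's test 0 members passed in that direction, where 0.608% of all genes did. *fog-1* was the 1 member called above 0, where 2.37% of all genes were, with a difference of 0.40 (limma adjusted p = 0.0892, SE 0.10). Its values in AB0S were 1188, 1152 and 1129.9 and in ABPS 1208, 1074 and 1238, with overlapping groups. Without EV0S repeat 3, 15 members passed, 12 of them below 0 and 3 above 0 (*cpb-1*, *fog-1* and *spe-48*), but calls also rose from 2.98% to 25.7% of all genes. Without ABPS repeat 3, *cpb-1* and *fog-1* passed, with 3.05% of all genes called, and without EVPS repeat 3 *cpb-1* alone, with 4.45%. With any other of the 12 libraries left out 0 members passed, as 0% of all genes did. Without the replicate block, *cpb-1*, *fog-1* and *spe-48* passed above 0 and *spe-38* below 0, with 9.35% of all genes called. For the same genes the comparisons share the AB0S and EV0S libraries, so they are not separate evidence.

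Between AB0S and EVPS, which differ in both the bacteria and the peptide, the values of 28 of 33 members did not overlap, with all AB0S libraries below all EVPS libraries, as for 21.6% of all genes. The exceptions were *spe-39*, *cpb-1*, *swm-1*, *try-5* and *spe-43*. Neither of the outlying libraries is in these groups.

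Other sperm genes were read from a list by name. It held the major sperm protein genes, the small sperm-specific families (*nspd*, *ssp*, *ssq*, *msd* and *sss* genes) and further named sperm genes such as *htas-1*, with 71 in all. Of the 71, 32 were major sperm protein genes. Reads shared between genes of these families were not examined, so counts of them may not be counts of separate observations. In AB0S against EV0S, 39 of the 71 were lower and 0 higher, where 8.26% of all genes were lower and 2.82% higher. The limma adjusted p values of the 39 lay between 0.0107 and 0.0997. This list was not counted with libraries left out, so the dependence of its count on single libraries is not known. The median log2 fold change of the 71 was -1.31. The lower genes included *htas-1*, a sperm histone H2A gene, at -1.80 (limma adjusted p = 0.0107) and the sperm chromatin gene *spch-3* at -1.41 (limma adjusted p = 0.0622). In EVPS against EV0S 0 of the 71 were called, where 5.51% of all genes were higher and 1.82% lower, and the median was -0.05. In ABPS against AB0S 0 were called, as 0% of all genes were, and the median was 1.13. The major sperm protein genes summed to 6473, 17052 and 17528 in EV0S, 10393, 11446 and 15366 in EVPS, 4749, 4847 and 5330 in AB0S and 6233, 13320 and 17470 in ABPS (lowest, median and highest). All 3 EVPS sums lay above the lowest EV0S sum and below the other EV0S sums. As for the 33 genes, EV0S repeat 3 and ABPS repeat 2 were the low libraries of their groups, with mean log2 deviations of -0.53 and -0.60 from the gene means.

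Genes that act in the choice between sperm and oocyte fate were read from a further list. Of 25 germline sex determination genes with values, 0 were lower and 2 higher in AB0S than in EV0S. Of all genes, 8.26% were lower and 2.82% higher. The 2 were *fem-3* at 0.26 and *tra-2* at 0.22 on the log2 scale (limma adjusted p = 0.0684 and 0.087). FEM-3 promotes and TRA-2 represses the sperm fate. In EVPS against EV0S 5 of the 25 were higher, where 5.51% of all genes were. The 5 were *tra-2*, *fem-3*, *puf-8*, *mog-1* and *sel-10*, with log2 fold changes from 0.23 to 0.37. A gene of this list, *gld-1*, is also on the oocyte list.

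Marker lists of other cells and stages were read in the same way. Their counts in AB0S against EV0S stand beside 8.26% of all genes called lower and 2.82% called higher. Of 18 oocyte genes, 1 (*pos-1*) was called in AB0S against EV0S, at a log2 fold change of 0.19, and the list median was 0.12. Of 13 early embryo genes with values, all had a log2 fold change above 0 in that comparison, with a median of 0.37, and 1 (*tbx-37*, at 0.82) was called. Their summed level was 944, 954 and 1711 in EV0S, 821, 863 and 922 in EVPS, 1471, 1541 and 1637 in AB0S and 1070, 1236 and 1587 in ABPS (lowest, median and highest), with *med-2* and *hlh-27* below 10 in all libraries. EV0S repeat 3 and ABPS repeat 2 stood apart here too, with mean log2 deviations of 0.44 and 0.46, so the embryo genes were high in the libraries of these groups where the sperm genes were low. Of 12 larval molt genes, 3 were lower in AB0S, *mlt-8*, *nas-36* and *bli-5*, and their summed level, at 18764, 19966 and 20995 in EV0S and 14008, 20271 and 22011 in AB0S, overlapped between the groups. Of 10 tissue markers, the muscle myosin gene *unc-54*, whose promoter drives the transgene, and the cuticle collagen gene *rol-6*, which is also the marker on the plasmid, were lower at -0.75 and -1.51. The part of embryos, larvae or other tissues in the lower sperm transcripts was not tested.

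Of 11 genes of the male soma, 0 were called in AB0S against EV0S, where 8.26% of all genes were lower and 2.82% higher. The summed level of the 11 was 1101, 1154 and 1155 in EV0S and 1073, 1088 and 1163 in AB0S. The sum is mostly *plg-1* (957 to 1148 in all libraries). Of the 11, 6 stayed below 10 in all libraries, among them the male sensory neuron genes *lov-1* (0.241 to 9.06) and *pkd-2* (1.58 to 8.08). *cwp-4* and *cwp-5*, also of male sensory neurons, were higher, at 14.0 to 26.6 and 4.56 to 16.4. The values of *try-5* lay between 20.4 and 35.5 over the 12 libraries.

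**Figure D5:**
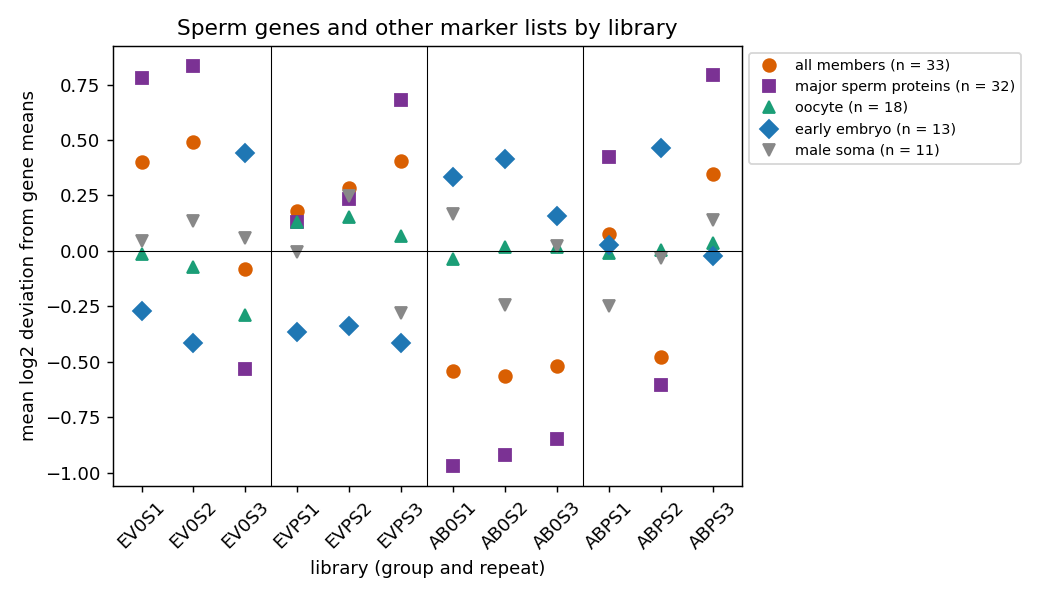
Mean log2 deviation from the gene means (y axis) of the 33 genes and of 4 marker lists in each library (x axis). The 33 genes lie between -0.56 and -0.52 in AB0S and at -0.48 in ABPS repeat 2, the major sperm protein genes lie below them in these 4 libraries and in EV0S repeat 3, and the early embryo genes are above 0 in these 5.

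The 33 genes share a few features that were not used to choose them. They lie on 4 chromosomes: 15 on I (45.5%, against 15.1% of all listed genes), 3 on III, 7 on IV and 8 on V, with 0 on II and 0 on the X chromosome, which holds 13.9% of the listed genes. Sperm-enriched genes are known to be scarce on the X chromosome of this species. All are annotated as protein coding, with a median exon length of 1267 bases against 1230 for all listed genes. For 10 of them an exon overlaps another annotated gene. The overlap is largest for *spe-29*, of whose exon length 34.1% is shared with *gon-1* on the opposite strand. Whether reads were counted by strand is not given in the sources used here.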

How the data were processed

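Whole-worm RNA-seq of 12 libraries in 4 groups of 3 repeats was used. The authors trimmed reads (fastx_toolkit, cutadapt 2.10), aligned them with TopHat2 2.1.1 to WBcel235 with Ensembl annotation, counted reads per gene with HTSeq 2.01, and normalized the counts with DESeq2 1.36.0. The authors then corrected the normalized counts for the repeats, by a method not given in the sources used here, and deposited the result. Of the 229068 deposited values, 307 were below 0 (lowest -0.636). They are not whole counts, so no count model was used, and the depth is unknown.

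The values, with those below 0 replaced by 0, were transformed to log2(value + 1). A linear model was fitted by limma 3.58.1 (R 4.3.3) to all 19089 genes and 12 libraries, with group and repeat number as terms and a mean-variance trend. P-values are two-sided with Benjamini-Hochberg adjustment over all genes. Aβ RNAi was tested as AB0S against EV0S, the peptide as EVPS against EV0S and as ABPS against AB0S, and the last pair against each other as a difference. The repeats are described as independent experiments by the study, while the labels do not name separate cultures. The repeat number was kept as a block because the study corrected for the repeats. After that correction, same-numbered libraries did not deviate together (mean correlation of deviations -0.18, against 0.09 for different numbers). Removal of a repeat effect itself lowers the correlation of same-numbered libraries, so these values cannot show whether the repeats were paired. An exact permutation test of 3 against 3 cannot go below p = 0.1, so none was used. The script was tested on simulated data.

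The members and gene lists were chosen with earlier results of these data known. The counts, medians and tests cover all 33 members, of which 2 are not reported here by name or in the figures. Values in every library are given for called members (at most the 8 of smallest p in a contrast, or the 3 of smallest p where none was called), members not named *spe-*, those with the highest and lowest means, and examples of each role. Roles are textbook knowledge. Positions and exon lengths come from an Ensembl annotation of WBcel235. Figures were drawn with matplotlib 3.10.9. Alternatives were other pseudocounts (0.1 and 5), filters on the mean value (1 and 10), no block, only the groups compared, quantile normalization, rescaling to the same sum, no trend, an adjusted p below 0.05, and leaving out each library. No sequence is shown.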

Additional observations from a re-analysis of the deposited data

Results flagged for a closer look

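The peptide's effect on *fog-1* differed between worms on empty-vector bacteria and worms on Aβ RNAi bacteria by 0.40 on the log2 scale (limma adjusted p = 0.0892, over all genes), which was found by the test of the difference itself. The EVPS value was higher than the EV0S value in each of the 3 repeats, while the ABPS value was higher than the AB0S value in repeats 1 and 3 only. The difference stayed above 0 under all 21 alternatives, from 0.33 to 0.46, and was past the threshold in 9 of them.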

How the results depend on the processing

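No called gene changed the sign of its log2 fold change under any alternative, but the median over the 33 genes in EVPS against EV0S, at 0.02, turned to -0.28 without EV0S repeat 3, to -0.0069 without EVPS repeat 3 and to -0.011 after rescaling to the same sum. Of the 33 genes, 16 were called in AB0S against EV0S, 3 in EVPS against EV0S, 0 in ABPS against AB0S and 1 in the difference of the peptide effects. With 1 library left out at a time, these counts ranged from 0 to 25, from 0 to 4, from 0 to 9 and from 0 to 15. Over the same fits, calls among all genes ranged from 0.0524% to 34.2%, 0% to 13.8%, 0% to 16.2% and 0% to 25.7%. In AB0S against EV0S, 2 were called with quantile normalization, 3 without the variance trend, 1 at an adjusted p below 0.05 and 7 with only the groups compared. The shares of all genes called were then 5.76%, 5.4%, 3.44% and 4.14%, in the same order. In EVPS against EV0S, 0 were called after rescaling to the same sum, without the trend, at an adjusted p below 0.05 or with only the groups compared. The shares of all genes called were then 0%, 0%, 0.021% and 0%, in the same order. In ABPS against AB0S, 3 were called with only the groups compared, with 12.7% of all genes called. In the difference, 2 were called with a mean value of at least 10, 2 after rescaling, 0 without the trend and 0 at an adjusted p below 0.05. The shares of all genes tested were then 5.86%, 5.07%, 0% and 0%. Without the replicate block 22 were called in AB0S against EV0S (20 lower and 2 higher), 3 in EVPS against EV0S, 0 in ABPS against AB0S and 4 in the difference. Of all genes, 17.7%, 13%, 0.0367% and 9.35% were then called, in the same order. Whether same-numbered samples share more than a number cannot be read from values already corrected for the repeats. The counts of all genes moved too: in AB0S against EV0S, 2114 of 19089 were called, 6524 without EV0S repeat 3 and 10 without EV0S repeat 2. The causes of these shifts were not tested. Depth is unknown, so the precision of *spe-27*, *spe-29* and *spe-38*, with means below 10, cannot be given from counts.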
